A study of Mus musculus with 3 samples.

Results

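The input DNA of C2C12 cells was described as a reading of how much DNA each part of the genome contributed to these chromatin samples. The measurement was the Cy3 channel of all 3 arrays of the series, which carried input DNA, that is, sheared chromatin DNA taken without immunoprecipitation. Of the 237203 positions probed outside the controls, the 228196 positions on autosomes were used, and 8904 positions on X and 103 on Y served only as a scale. Each value is the log2 of the processed Cy3 signal minus the median of autosomal probes in the same 1% class of GC content, so 0 is the level of a usual autosomal probe of that base composition.

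C2C12 is a mouse myoblast line that can leave the cell cycle reversibly. Per the labels, all 3 samples were cells arrested in G0 by suspension culture in 2% methylcellulose, and their chromatin was crosslinked with 1% formaldehyde before 0.125 M glycine was added. Input replicates 1 and 2 were hybridised beside PRDM2 precipitates and replicate 3 beside an H3K9me2 precipitate, and they are called here by those arrays. The labels name no genotype change, no other treatment and no separate cultures, so the p-values below measure only the spread between these 3 arrays, whose number limits the precision. Muscle identity cannot be checked on DNA, and no array of normal mouse DNA was used here.

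In a cultured line, input DNA follows the karyotype: a chromosome present in an additional copy gives more fragments along its whole length, and a homozygous deletion leaves only the background of the probe. Inbred mouse strains also differ in the copy number of many small segments, often in families of receptors, immune genes and detoxifying enzymes. A probe's own affinity, cross-hybridisation and the AT content around it also set its signal, and these are shared by all arrays, so the values below are relative signals and not copy counts.

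The probes were 45 to 60 nt long, and 1 probe is shown for each of 6 loci that the results turn on, chosen as the probe nearest to the gene's median. Positions are those of the array design, with a build that the sources used here do not give, and each sequence is printed as deposited, 5′ to 3′, in lower case. Of 16470 probes found whole in RefSeq promoter sequences (GRCm38), 16425 read along the plus strand. The first 3 lie in genes with little input signal, the next pair in genes with high signal, and the last in Myc on chromosome 15.
Cdkn2a (chr4:88766324-88766368): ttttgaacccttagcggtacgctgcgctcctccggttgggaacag
Tas2r120 (chr6:132622106-132622165): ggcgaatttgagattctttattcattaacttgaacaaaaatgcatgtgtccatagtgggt
A430090E18Rik (Skint3, chr4:111730886-111730945): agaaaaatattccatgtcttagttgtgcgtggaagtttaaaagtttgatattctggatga
Trpm8 (chr1:90132649-90132703): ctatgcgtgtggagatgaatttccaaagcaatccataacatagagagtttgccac
Sfi1 (chr11:3092443-3092489): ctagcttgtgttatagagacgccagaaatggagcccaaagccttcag
Myc (chr15:61813784-61813843): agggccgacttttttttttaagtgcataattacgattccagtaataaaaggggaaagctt
The Tas2r120 probe had processed signals of 27.4, 12.96 and 12.01 on the 3 arrays and was not well above background on any of them. The Cdkn2a probe had 105, 134 and 149 and was well above background on PRDM2 array 2 and the H3K9me2 array. The Trpm8 probe had 4643, 5064 and 3977 and was well above background on all 3.

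The share of probes with input well above background was 98.0%, 99.02% and 92.8% on PRDM2 array 1, PRDM2 array 2 and the H3K9me2 array. Across autosomal probes the GC-adjusted values correlated at 0.93 between the PRDM2 arrays and at 0.82 and 0.81 between each of them and the H3K9me2 array, with probe affinity shared by all 3. The H3K9me2 array had the wider spread of values, with an SD of 1.38 over probes against 1.05 and 1.12. It also lost more signal at AT-rich probes: among probes with 30 to 35% GC, 33.5% were not well above background there, against 8.01% and 3.65% on the PRDM2 arrays.

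Chromosome 15 carried more input DNA than any other autosome. Its median over 9509 probes was 0.59, 0.55 and 0.56 on PRDM2 array 1, PRDM2 array 2 and the H3K9me2 array, a mean of 0.57 ± 0.02 (SD, n = 3), which is 1.48 times the usual autosomal signal. The medians of the other 18 autosomes lay between -0.10 (chromosome 13) and 0.07 (chromosome 11), so all 3 chromosome 15 values stood apart from every value of the other autosomes. Against the median of the other autosomes on the same array, chromosome 15 was higher by 0.61 ± 0.02 (limma with Benjamini-Hochberg adjustment over 19 autosomes, adjusted p = 1.28e-09). On chromosome 15, 72.9% of the probes lay above 0 in their mean over arrays. On normexp-corrected signals the difference was 0.50, 0.48 and 0.12 on the 3 arrays and missed the threshold (limma, adjusted p = 0.14), with the H3K9me2 array the low one.

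By the same test 6 of 19 autosomes were above the rest (31.6%) and 4 were below (21.1%), but apart from chromosome 15 the differences were small. Chromosome 11 was higher by 0.11 ± 0.03 and chromosomes 17, 8, 4 and 19 by 0.07, 0.06, 0.05 and 0.045. Chromosomes 13, 18, 14 and 12 fell by 0.07, 0.05, 0.04 and 0.03. Base composition moved with these shifts, since chromosome 11 was higher by 0.26 without the GC adjustment and by 0.06 when the GC of the neighbouring probes was adjusted for as well. In all, 11 autosomes passed the test without the GC adjustment and 13 with the neighbourhood included, against 10. Without PRDM2 array 1, 4 autosomes passed.

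**Figure D1:**
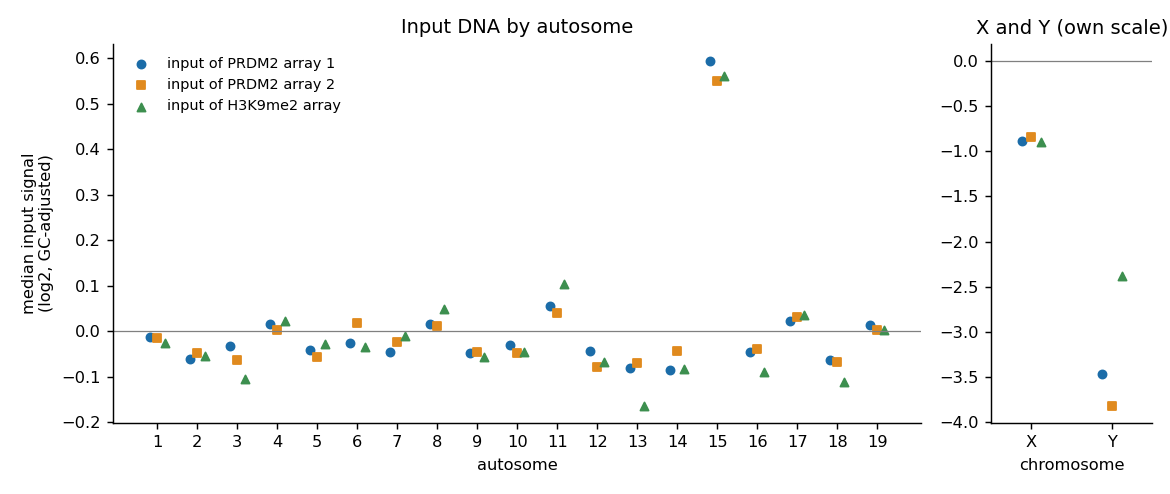
Median GC-adjusted input signal (log2) of each autosome (left) and of X and Y (right, on a scale of their own), with 1 symbol for each array and the usual autosomal level at 0. The 3 chromosome 15 values lie between 0.55 and 0.59, while the means of the other autosomes lie between -0.10 and 0.07.

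The sex chromosomes gave a scale for these values and were not tested. X, with 8904 probes, had medians of -0.88, -0.84 and -0.89 (mean -0.87 ± 0.03, SD, n = 3), or 0.546 times the usual autosomal signal, and 65 of its 66 windows of 2 Mb had a mean under -0.5. The 103 Y probes had medians of -3.47, -3.82 and -2.38, and only 22, 32 and 41 of them were well above background. The 8 Y genes probed, among them the testis-determining gene Sry (-3.72, -4.57 and -2.78) and the histone demethylase gene Uty (-4.16, -4.18 and -2.92), were all low on all 3 arrays. Among the autosomal probes, 656 were at or below the Y median on every array.

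The raised signal of chromosome 15 ran along its whole probed length. In 2 Mb windows with at least 20 probes, a window was called gained or missing at an adjusted p under 0.05 (limma over 1098 autosomal windows), the same sign on all 3 arrays and a mean of at least 0.2 in size. On chromosome 15, 38 of 44 windows were gained and 0 missing, against 76 of 1098 windows gained over all autosomes (6.92%). Its called windows ranged from 0.35 to 0.76, and in 10 equal parts of its length the mean lay between 0.36 and 0.66. The 6 windows that were not called had values of 0.23 to 0.57 on the PRDM2 arrays and of -0.14 to 0.07 on the H3K9me2 array.

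The gene values of chromosome 15 shifted as a body. For genes with at least 5 probes the gene value is the median of its probes, and 515 of 597 genes of chromosome 15 (86.3%) were above 0 on all 3 arrays, against 33.4% of the 14467 genes of the other autosomes. The median chromosome 15 gene stood at 0.57, with quartiles of 0.34 and 0.77. Myc, the growth-promoting transcription factor gene at chr15:61812764-61816477, had 0.63, 0.29 and 0.45, a mean of 0.46 ± 0.17, which is 1.37 times the usual signal and close to the median of the chromosome. Of 24 measured genes on the list of the Myc neighbourhood, 23 had a mean above 0, as did 563 of the 597 genes of chromosome 15 (94.3%). The list median was 0.52, near the 0.57 of the chromosome, beside 0.01 for all genes. In the list 3 genes passed the gene call described below. They were Tatdn1, a deoxyribonuclease-like gene, at 1.09, Wisp1 (Ccn4), a secreted matricellular protein gene, at 1.06, and the sialyltransferase gene St3gal1 at 1.06. Of all genes on chromosome 15, 9.05% passed that call. Zhx2, a repressor gene known from the liver, was the exception of that list, at -0.18, -0.61 and -0.46.

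**Figure D2:**
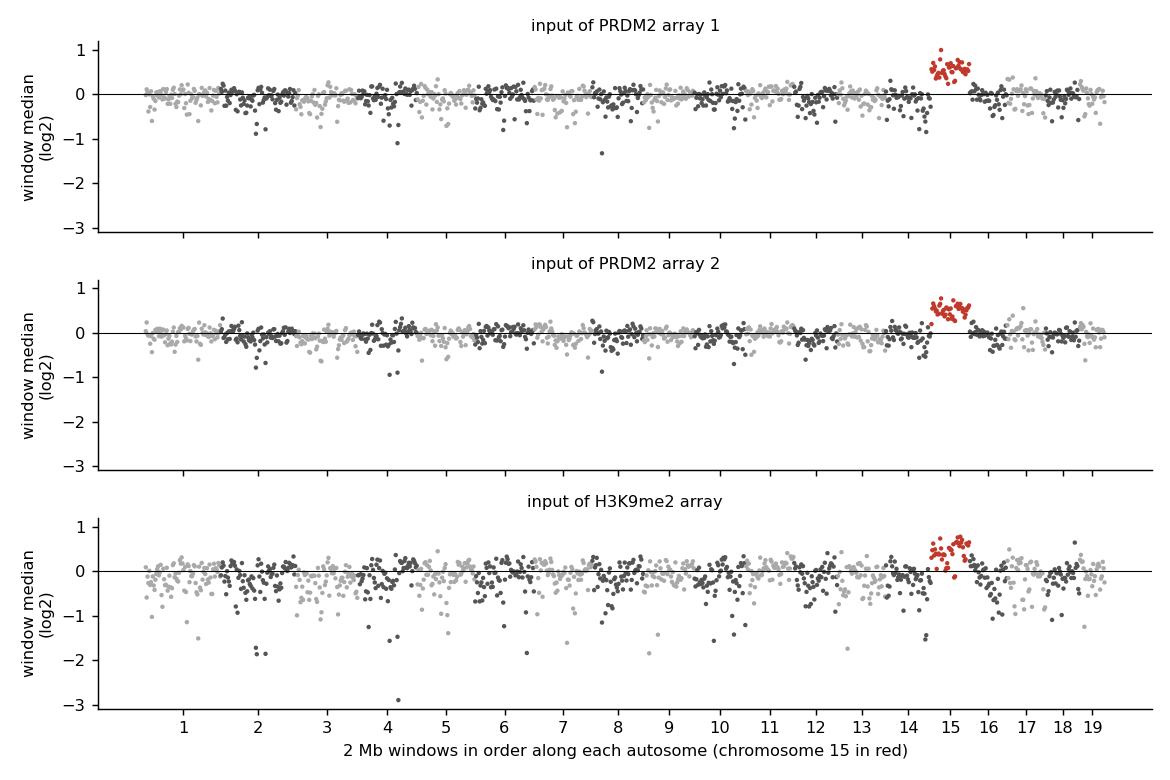
Median GC-adjusted input signal (log2) of each 2 Mb autosomal window, in order along autosomes 1 to 19, with 1 panel for each array and chromosome 15 in red. The chromosome 15 windows form a raised block in all 3 panels, and low windows reach further down on the H3K9me2 array.

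Outside chromosome 15 the gained windows were small in size. There were 38 of 1054, with means from 0.20 to 0.38. The window at chr17:6000001-8000000 stood at 0.33, 0.30 and 0.49, and that at chr17:14000001-16000000 at 0.37, 0.38 and 0.30. Each holds a pair of neighbouring genes with raised signal: Tagap1, a GTPase-activating protein gene, with the ribonuclease gene Rnaset2b in the first, and the chromatin remodelling subunit gene Phf10 with 9030025P20Rik in the second. No stretch of 3 or more neighbouring windows at or above 0.2 on every array lay outside chromosome 15, where there were 4 such stretches of 5, 9, 6 and 16 windows.

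Windows called missing were more frequent than windows called gained. The calls numbered 172 of 1098 (15.7%), and their median GC over probes was 41.6% against 43.4% for all windows. The level of 0 is set by probes, and the median over all windows was lower, at -0.05. Off chromosome 15 it was -0.06, with an SD over windows of 0.22, beside the size of 0.2 needed for a call. Of 20 windows where at least 50% of the probes belong to olfactory, vomeronasal or taste receptor genes, 12 were missing, and of the other 1034 windows outside chromosome 15, 160 (15.5%). In the odorant receptor cluster at chr2:86000001-88000000 the values were -0.89, -0.79 and -1.72, and the mean of -1.13 became -0.58 when the GC of the neighbourhood was adjusted for.

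The most negative called window at chr4:110000001-112000000 had no receptor probes and stood at -1.10, -0.90 and -1.47 (mean -1.16 ± 0.29, limma adjusted p = 0.00712). With neighbourhood GC adjusted for, its mean was -1.06. It holds Skint genes described below. The window at chr8:30000001-32000000 held probes of Unc5d alone, a netrin receptor gene, at -1.33, -0.88 and -1.15. The window at chr4:92000001-94000000 held Tusc1 alone, a candidate tumour suppressor gene, at -0.70, -0.95 and -1.57.

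At the level of genes, 15064 genes with at least 5 probes were tested, and a call needed an adjusted p under 0.05 over all of them, the same sign on all 3 arrays and a mean of at least 1 in size. In all, 418 genes were missing (2.77%) and 159 were gained (1.06%). For genes as for windows, missing is the name of the call for low signal. A gene called missing can still be detected at most of its probes. The number of calls changed with the arrays kept in the fit. Without PRDM2 array 1 or without PRDM2 array 2 there were 0 calls, with the lowest limma adjusted p at 0.0667 and 0.0659. In these fits 720 and 818 genes of the required sign and size had an unadjusted p under 0.05. The largest values were kept, with Cdkn2a at -3.79 and -3.89 and Sfi1, described below, at 3.44 and 3.22. Without the H3K9me2 array 180 genes were missing and 135 gained.

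A few genes had much less input signal than usual. Only 8 genes were at or below -2 on every array. They were Tas2r120, A030013N09Rik (Skint9), Cdkn2a, A430090E18Rik (Skint3), H2-M1, Olfr290, V1rc20 (Vmn1r6) and Olfr291. The first 5 of these had means of -4.62 to -3.57, beside a Y median of -3.22. With normexp and an offset of 50, Tas2r120 and Cdkn2a stood at -0.63 and -0.67, under the size needed for a call. Without background subtraction they stood at -1.504 and -1.61 and were called.

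Cdkn2a, which encodes the cell cycle inhibitor p16Ink4a and the p53 activator p19Arf, stood at -4.24, -4.03 and -3.55 at chr4:88764629-88768244. Its mean of -3.94 ± 0.35 is 0.0652 times the usual signal (limma, adjusted p = 0.000711). Its 22 probes did not all behave alike: 16 were at or below -2 on every array, while 5 were at or above -1 on every array, between -0.81 and 1.16. Of the 22 probes, 7, 10 and 11 were well above background on PRDM2 array 1, PRDM2 array 2 and the H3K9me2 array, so some low probes were detected. The 5 probes at or above -1 had a higher median GC, 53.3% against 39.7% for the 16 low ones, and they lie between low probes. The GC ranges overlapped, however. The probe at chr4:88767396-88767441, which is among the 5, had 47.8% GC. The low probe at chr4:88765914-88765958 had 71.1% GC and values of -5.87, -6.58 and -4.58. The low stretches at both ends, chr4:88764629-88765293 and chr4:88767582-88768244, had means of -4.08 and -5.09. With probes that were well above background on all arrays alone, the gene stood at -0.47, since that setting leaves out most of the low probes.

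The genes on either side of Cdkn2a had input signal. Mtap, the methylthioadenosine phosphorylase gene that lies 154.7 kb away, had -0.15, -0.62 and -0.23 and was well above background at all 13 probes on every array. Dmrta1, a DM domain gene 409.6 kb away on the other side, had -1.003, -0.74 and -0.64. The 10 type I interferon genes with 5 or more probes beyond Mtap had means from -0.92 to 0.37, with 0 of 14 measured interferon genes called over the list. On the H3K9me2 array alone these 10 ranged from -1.54 (Ifna14, with 4 of 8 probes well above background) to 0.20 (Ifna2). Elavl2, a neuronal RNA-binding protein gene further on, had -0.45, -0.27 and -0.20. No probe carried the name Cdkn2b, so the low signal is bounded only by Mtap and Dmrta1, 567.9 kb apart.

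**Figure D3:**
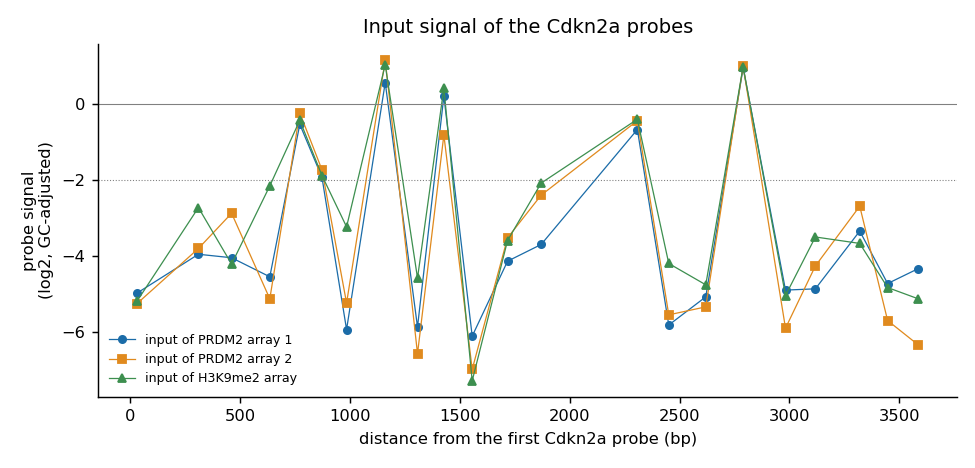
GC-adjusted input signal (log2) of each of the 22 Cdkn2a probes against the distance from the first of them (bp), with 1 line for each array. The dotted line marks -2: 16 probes lie at or below it on all 3 arrays, and 5 lie at or above -1 between them.

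Tas2r120, a bitter taste receptor gene at chr6:132620714-132623519, had -4.65, -5.04 and -4.17 (mean -4.62 ± 0.44, limma adjusted p = 0.000711). Of its 17 probes, 14 were at or below -2 on every array, and 0, 1 and 3 probes were well above background, so the value is set by background-level signal and its exact size is not resolved. Its neighbours of the same family did not share this: the 11 other Tas2r genes of the cluster lay between -1.05 and -0.42 on PRDM2 array 1 and between -0.78 and -0.12 on PRDM2 array 2. On the H3K9me2 array they lay between -2.68 and -1.08, above the -4.17 of Tas2r120.

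A pair of neighbouring Skint genes was similarly low. Skint genes encode membrane proteins of skin and thymus epithelium that are named for their role in selecting intraepithelial T cells. A430090E18Rik (Skint3) had -4.40, -4.07 and -3.20, and 1 of 14 probes was well above background on each array. A030013N09Rik (Skint9) had -4.35, -4.91 and -3.23, with 1, 3 and 3 of 9 probes well above background. Both passed the test (limma, adjusted p = 0.00199 and 0.00273), and together they span 203.8 kb at chr4:111729559-111933326.

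The genes flanking this pair had more signal on the PRDM2 arrays. C130057D23Rik stood at -0.30, 0.24 and -0.36, and A030001H23Rik on the other side at -0.64 and -0.41 on the PRDM2 arrays but at -3.08 on the H3K9me2 array. On the PRDM2 arrays, therefore, the drop lies within the 799.3 kb between these flanking genes, and on the H3K9me2 array its far edge is not resolved.

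H2-M1, a class Ib gene of the major histocompatibility complex at chr17:36278913-36280217, had -4.41, -3.94 and -2.35 on 5 probes (mean -3.57 ± 1.08), of which 1, 3 and 5 were well above background on PRDM2 array 1, PRDM2 array 2 and the H3K9me2 array. Its neighbours H2-M11 and H2-M10.5 lay near 0, with means of -0.05 and -0.06. Of 27 measured MHC genes, H2-M1 was the 1 that was missing and 4 were gained, beside 2.77% and 1.06% of all genes. Among the gained, H2-Bl was uneven between arrays, at 0.79, 2.59 and 2.30, with 1 of its 5 probes left out as an outlier spot on an array, and H2-Q10 stood at 1.12, 1.03 and 1.33.

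**Figure D4:**
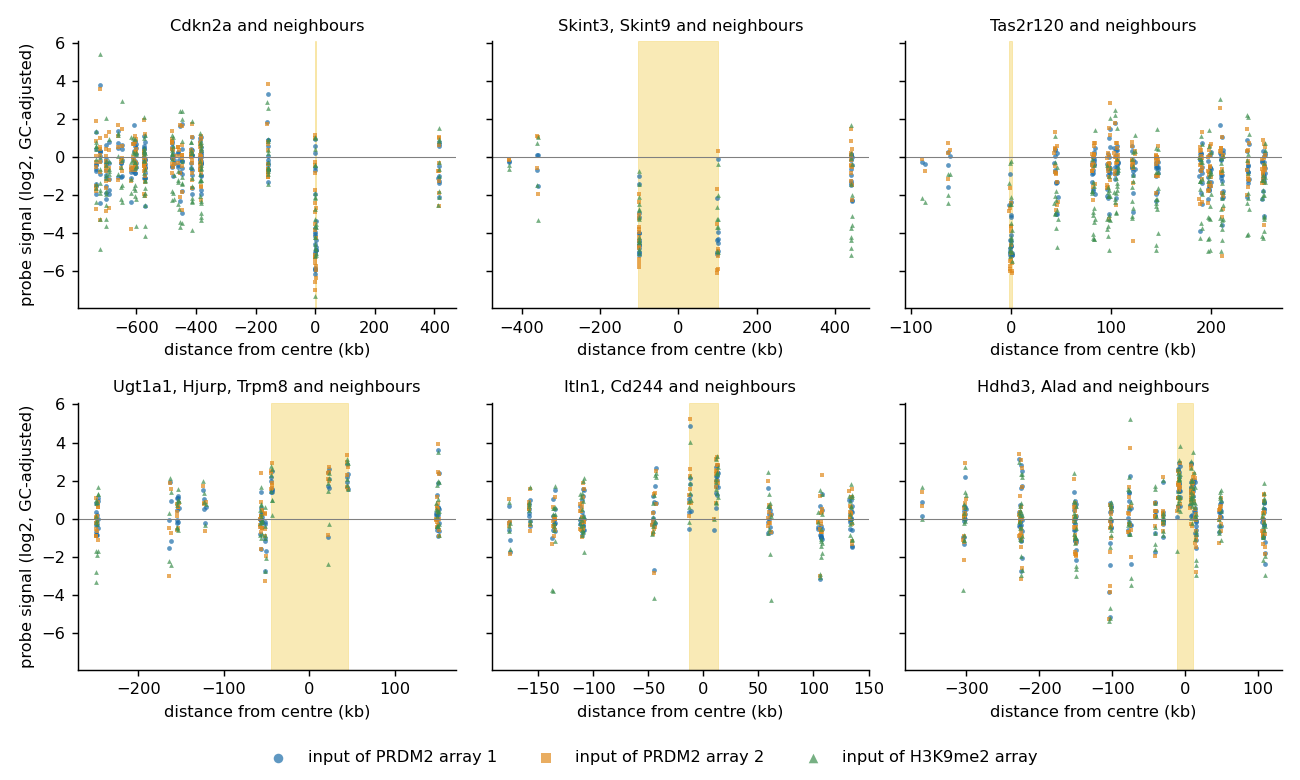
GC-adjusted input signal (log2) of the probes at 6 loci against the distance from the centre of the named genes (kb), with 1 symbol for each array and the span of the named genes shaded. In the top row most probes of Cdkn2a, Skint3, Skint9 and Tas2r120 lie at or below -2, while 5 Cdkn2a probes lie at or above -1 and the gene to the right of Skint9 is also low on the H3K9me2 array, and in the bottom row the shaded genes rise above their neighbours.

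Chemosensory receptors made up most of the missing calls. Of the 418 missing genes, 255 (61%) were olfactory or vomeronasal receptors, which were 5.34% of the genes tested. By list, 237 of 721 olfactory receptor genes were missing and 1 was gained (Olfr285, on chromosome 15), with a median of -0.79. Of 84 vomeronasal receptor genes 18 were missing and 0 gained, with a median of -0.57. Both lists were chosen with earlier results of these data known, and the median of all genes was 0.01.

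Olfr290 and Olfr291, neighbouring odorant receptor genes on chromosome 7, were low on all arrays alike: Olfr290 had -2.86, -3.12 and -2.73, and Olfr291 had -2.07, -2.39 and -2.31. With Olfr310 (-1.60, -1.68 and -3.21) and Olfr309 (-1.58, -1.66 and -2.42) they formed 1 of only 2 runs of 3 or more neighbouring genes at or below -1 on every array. No tested gene lies between the end of Olfr290 at chr7:84792583 and the start of Olfr310 at chr7:86145544, so the run is not a continuous stretch of low probes. Olfr309 stood at 0.14 when only bright probes were used. The other run was Olfr772, Olfr1518 (Olfr775) and Olfr776 on chromosome 10, with medians over the 3 genes of -1.68, -1.45 and -2.35. With neighbourhood GC adjusted for, Olfr772 and Olfr1518 stood at -0.98 and -0.996, which is under the size for a call, so this run was not kept. V1rc20 (Vmn1r6), a pheromone receptor gene, had -2.16, -2.21 and -2.40, with 5, 5 and 4 of its 9 probes well above background. With neighbourhood GC adjusted for, V1rc20 stood at -1.45, Olfr290 at -2.23 and Olfr291 at -1.64. Without background subtraction they stood at -0.59, -0.77 and -0.59, under the size needed for a call. Of the 10 Olfr290 probes 3, 5 and 3 were well above background on the 3 arrays, and of the 8 Olfr291 probes 3, 3 and 1.

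Most other low receptor genes differed between arrays. Olfr153 had -1.90, -2.26 and -3.23, Olfr900 had -1.95, -1.45 and -3.57, Olfr206 had -1.69, -1.996 and -3.18, and Olfr707 had -1.95, -1.74 and -2.99. In each of them the H3K9me2 array was the lowest. Over the olfactory list the medians were -0.58 and -0.34 on the PRDM2 arrays and -1.29 on the H3K9me2 array.

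Base composition moved with the receptor values. Where the gene's probes had a mean GC under 36%, 49.0% of 437 receptor genes and 22.5% of 325 other genes were missing. At 40 to 45% GC, 0 of 67 receptor genes and 0.26% of 5758 other genes were missing. With the GC of neighbouring probes within 500 bp adjusted for, 154 genes were missing in place of 418, of which 141 were among the 418, and the olfactory median moved from -0.79 to -0.40. The part of base composition in these values beyond that adjustment was not tested.

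**Figure D5:**
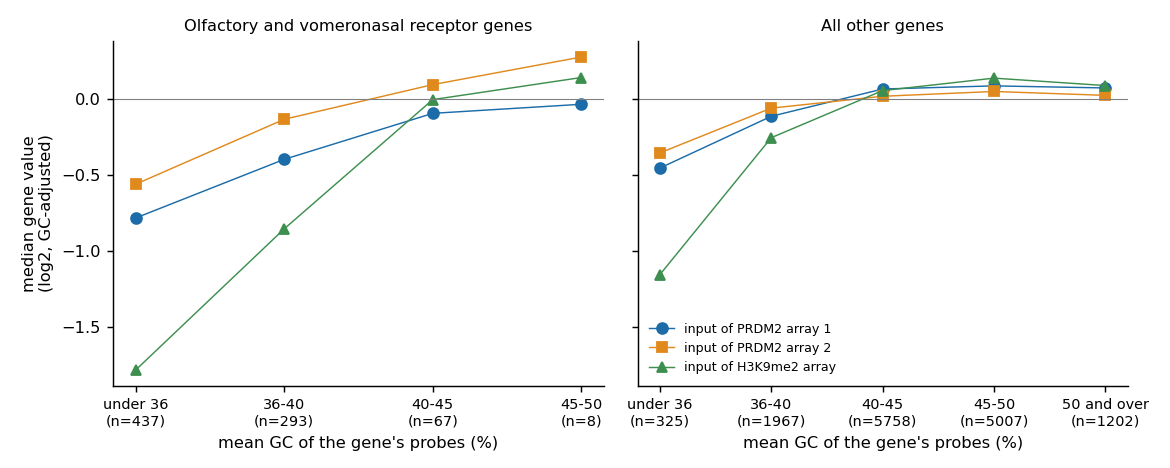
Median gene value (log2, GC-adjusted) in classes of the mean GC content of the gene's probes (%), for olfactory and vomeronasal receptor genes (left) and all other genes (right), with 1 line for each array and the number of genes under each class. In both panels the value falls toward low GC, most on the H3K9me2 array, where receptor genes under 36% GC have a median of -1.78.

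Other gene families in clusters were counted in the same way, beside 2.77% of all genes missing and 1.06% gained. Of 14 Ly49 and natural killer receptor genes 4 were missing, with Klra5 at -1.25, -1.04 and -2.32, and of 19 keratin-associated protein genes 5, with Krtap9-1 at -1.08, -1.15 and -2.45. Protocadherins had 7 of 50 missing, with Pcdhga8 at -1.36, -1.15 and -2.21. In these named genes the H3K9me2 array was the lowest. These 3 lists were AT-rich, with a median GC of 35.9% (Ly49 and natural killer receptors), 37.1% (keratin-associated proteins) and 36.8% (protocadherins). Of all genes that are not olfactory or vomeronasal receptors, 22.5% were missing under 36% GC and 2.03% at 36 to 40% GC. Whether these families differ from other genes of the same GC was not tested. The counts of the other lists were few: cytochromes P450 had 3 of 53 missing and 1 gained, serpins had 2 of 40 missing, with Serpini2 at -1.27, -0.98 and -3.19, and of 27 canonical histone genes 1 was missing, Hist1h3b at -0.64, -0.98 and -1.47. None of the 46 muscle genes was called, and their median was -0.10: Myod1 stood at 0.18, 0.19 and 0.14 and Myog at -0.18, -0.01 and -0.13.

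Genes of growth control were given by a fixed set of names and by list. Trp53 had -0.31, -0.67 and -0.23, Rb1 -0.31, -0.08 and -0.08, and Mdm2, which encodes the ubiquitin ligase of p53, 0.12, -0.02 and 0.31. Ccnd1, the cyclin D1 gene, had -0.65, -1.18 and -0.48, under the size needed for a call. Of 42 oncogenes 1 was missing, the growth factor receptor gene Igf1r at -0.76, -1.21 and -1.19, and 0 were gained. The Igf1r mean was 0.482 times the usual signal, and 18, 20 and 18 of its 21 probes were well above background, so its DNA was detected. Of 35 tumour suppressor genes Cdkn2a alone was called. Both counts are near the 2.77% of all genes that were missing.

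The gained genes were spread over the genome, with 54 of 159 on chromosome 15, where 9.05% of the genes were gained against 0.73% of the genes on the other autosomes. The gene with the highest value was Sfi1, which encodes a centrin-binding protein of the spindle pole, at 3.31, 3.76 and 3.12 on 5 probes (mean 3.40 ± 0.33, 10.54 times the usual signal, limma adjusted p = 0.000938). All 5 probes, at chr11:3092443-3093413, were between 2.41 and 3.996. Its neighbour Eif4enif1 had -0.31, -0.24 and -0.80.

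The only run of 3 neighbouring genes at or above 1 on every array lay at chr1:90043356-90133150. It held Ugt1a1, the bilirubin-conjugating enzyme gene, at 1.56, 1.88 and 1.47, 6430706D22Rik (Hjurp), the gene of the chaperone that loads centromeric histone, at 1.89, 2.23 and 1.65, and Trpm8, the cold-sensing channel gene, at 2.06, 2.49 and 2.50. All 6 Trpm8 probes were at or above 1 on every array, as were 4 of 6 in 6430706D22Rik and 4 of 7 in Ugt1a1. All 3 genes passed the test (limma, adjusted p = 0.00273, 0.00266 and 0.00166), with means 3.12, 3.802 and 5.10 times the usual signal.

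The flanks of this run were at other levels. Dnajb3 stood at -1.09, -0.72 and -0.91 and Spp2 at 0.22, 0.38 and 0.41, 199.2 kb apart. The Ugt1a2 probes just before Dnajb3 had -0.02, 0.03 and -0.06. Further out Ugt1a6a had 0.63, 0.82 and 0.88 and Ugt1a6b had 0.52, 0.47 and 0.78. Beyond these, Ugt1a7c and Usp40 had means of -0.07 and -0.11. The smaller raised values of Ugt1a6a and Ugt1a6b were therefore separated from the run by Ugt1a2 and Dnajb3.

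Shorter neighbouring pairs were also raised together, a search added after the data were seen. Off chromosome 15 there were 4 such pairs besides the run, and both genes were called in each. Cd244 (Cd244a), the gene of an immune receptor of natural killer cells, had 2.04, 2.39 and 2.01. Itln1 beside it, a lectin gene, had 1.14, 1.41 and 1.18, while the flanks of the pair, Refbp2 and Ly9, had means of -0.02 and 0.22. Hdhd3, a hydrolase gene, had 1.65, 1.76 and 2.01, and Alad, a haem synthesis gene known to vary in copy number between inbred strains, had 1.60, 1.34 and 1.21. The Hdhd3 and Alad pair lies within 42.3 kb, between Bspry with a mean of 0.04 and Pole3 with 0.59. Tagap1 and Rnaset2b ranged from 1.14 to 1.47 over arrays, and Phf10 and 9030025P20Rik from 1.15 to 1.86.

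Of the other genes with high values, Krt78, a keratin gene on chromosome 15, had 1.70, 1.88 and 1.75, which is 1.21 above the value of its chromosome. Tnfsf12, the gene of the cytokine TWEAK, had 1.59, 1.92 and 1.52, Hspc171 (Tmem208) had 1.53, 1.23 and 2.18, and the glutathione transferase gene Gsta2 had 1.69, 1.65 and 1.57. All 4 were called, with means of 3.42, 3.19, 3.13 and 3.11 times the usual signal. Probes within such genes differed: 13 of 18 Krt78 probes and 11 of 19 Gsta2 probes were at or above 1 on every array.

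Genes listed as varying in copy number between mouse strains gave 1 gained and 1 missing of 27 measured, with a median of 0.44, beside 1.06% of all genes gained and 2.77% missing. The major urinary protein gene Mup5 was gained, at 1.12, 1.70 and 0.94, and the adult beta-globin gene Hbb-b1 was missing, at -1.41, -1.04 and -1.77. Alad, described above and called gained, was not on this list and is not in its count. Glo1, the glyoxalase gene, had 0.86, 0.80 and 0.36, under the size needed for a call. Of 80 ribosomal protein genes 2 were gained, Rpl3 and Rpl37, at 1.23 and 1.19, and both lie on chromosome 15, as does Hoxc10, the 1 gained of 32 Hox genes, at 1.05. On that chromosome 9.05% of all genes were gained.

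The highest stretch on the arrays carried no gene name. It was a run of 11 neighbouring probes at chr17:39452112-39454665, all well above background, with medians of 4.25, 3.57 and 3.42 (mean 3.75, 13.4 times the usual signal) and single probes between 1.66 and 5.04. On the array it lies between Olfr136 and Pgk2. RefSeq (GRCm38) places 14 genes between the same neighbours, among them Esp genes, AY036118 and Rn18s-rs5, an 18S ribosomal RNA related sequence. The probes of the run were not matched to any of these genes, since no genome of the array's build was used here.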

How the data were processed

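Cy3 input DNA was read on 3 two-colour Agilent promoter arrays of C2C12 cells. The deposited Cy3 intensities were processed by Agilent Feature Extraction 10.5.1.1, per the file headers, which subtracts background, detrends, and replaces dim signals by surrogates (538, 380 and 4176 probes). Here outlier spots (34, 30 and 60) were left out, log2 was taken, and the median of autosomal probes of the same 1% GC class was subtracted. The immunoprecipitate channel and the deposited value table were not used. Values are medians over chromosomes, 2 Mb windows (at least 20 probes) and gene names (at least 5 probes), tested against 0 with limma 3.58.1 (lmFit, eBayes) in R 4.3.3; chromosomes were first set against the median of the others. Of 15064 gene names, 12199 were current RefSeq symbols, 2548 were synonyms of 1 gene and 317 were unmatched. On simulated data with the real values' spread, 44 and 47 of 50 genes shifted by 1.5 up or down were called. Of 14274 unshifted genes off chromosome 15, 121 were called in either direction. Off chromosome 15 the real data gave 105 gained and 418 missing of 14467 genes. The simulation shuffled probe effects and array noise over all probes, those of chromosome 15 and of the called genes included. The 121 simulated calls are thus no measure of how many real calls are false. Noise that follows GC content and any likeness of neighbouring probes were therefore not kept, and false calls from these were not measured.

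Named genes were the 10 lowest and 10 highest called genes with a standard symbol, genes of neighbouring runs, 12 genes of growth control, muscle and strain variation, and up to 3 called members of each list; genes at or below -2 on every array and raised pairs were added after their values were seen. Members, lists and rules were chosen with earlier results of these data known. PRDM2 array 1 was scanned on another day than the other arrays; with 1 group, no batch term was fitted. Alternatives were other background corrections, GC adjustments, filters, window sizes, thresholds and each array left out.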

Additional observations from a re-analysis of the deposited data

How the results depend on the processing

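Chromosome 15 stayed above the other autosomes under all settings run, by 0.37 to 0.79, and between 0.60 and 0.62 with an array left out; it missed the threshold only with normexp (0.37, limma adjusted p = 0.14). With normexp 0 autosomes, 0 windows gained, 0 windows missing, 22 genes gained and 0 genes missing were called by limma, with 6 autosomes, 42 and 18 windows, and 22 and 0 genes of the required sign and size at an unadjusted p under 0.05. Without GC adjustment 158 windows were gained and 344 missing, and 573 genes gained and 1420 missing. Means in place of medians gave 4 autosomes and 93 missing windows. Windows of 1 Mb gave 178 gained and 346 missing, windows of 5 Mb 23 and 78, and a size of 0.3 gave 42 gained windows. Without chromosome 15, added after the data were seen, 34 windows and 105 genes were gained. Missing genes numbered 154 with neighbourhood GC, 87 with bright probes, 39 with both (added after the data were seen) and 12 without background subtraction, where 56 were gained. A gene size of 0.5 gave 1422 gained and 1449 missing genes, a size of 1.5 gave 16 and 108, and at least 10 probes gave 72 gained. With 1 array left out, 4 to 9 autosomes, 33 to 68 gained and 50 to 191 missing windows, and 0 to 135 gained and 0 to 180 missing genes were called; with PRDM2 array 1 or 2 left out, limma called 0 genes, at an unadjusted p 165 and 181 gained and 555 and 637 missing. Among the named genes run one by one, signs turned for these, of which Olfr309 alone was called: Myog 0.41 and Mdm2 -0.24 without GC adjustment, Mdm2 -0.10, Mtap 0.19 and Myod1 -0.025 with means, Rb1 0.025 with neighbourhood GC, and Olfr309 0.14 with bright probes. The causes were not tested. No probe sequence was repeated on the array, so repeats could not be left out. No paired analysis was possible because there was 1 group. Low signals are limited by background: Tas2r120 and both Skint genes hold few probes well above it, so values below about -4 have no firm order.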

Other observations

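Short stretches of probes with low or high input were searched for within genes, with a rule chosen after the data were seen: at least 4 neighbouring probes at or below -2, or at or above 1.5, on every array. There were 10 low and 14 high stretches. Of the low stretches, 5 lay in Tas2r120, Cdkn2a and A430090E18Rik (Skint3), described above. Others covered 4 of 15 probes of Pcgf3, a Polycomb ring finger gene, at -5.64, -4.97 and -4.28, and 4 of 18 probes of Cebpb, a transcription factor gene of adipocytes and macrophages, at -4.42, -4.30 and -4.75. In Pawr, a pro-apoptotic gene, 4 of 22 probes stood at -3.36, -2.85 and -2.68. These 3 stretches spanned 1026, 628 and 624 bp.

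High stretches were found within single genes too. In Tmem5 (Rxylt1), a glycosyltransferase gene, 4 of 18 probes stood at 3.40, 3.17 and 2.96, and in Tfam, the gene of the mitochondrial transcription factor, 4 of 16 stood at 2.23, 2.29 and 2.68. In Spink2, a protease inhibitor gene, 4 of 14 probes stood at 2.25, 2.80 and 2.43, and in Ccdc9, 5 of 20 stood at 2.37, 2.13 and 2.52. On chromosome 15, 5 of 106 probes of Plec1 (Plec), the gene of a cytoskeletal linker, stood at 1.95, 2.21 and 2.06. Whether such probes have further matches in the genome was not tested.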
